A study of Homo sapiens with 4 samples.

Results

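The 3p arms of the let-7 microRNAs were followed in H661, an established human lung cancer line, after exposure to the histone deacetylase inhibitor entinostat. Rows of the deposited count table were taken by name, those starting with let-7 and ending in -3p plus miR-98-3p, which gave 7 of 826 mature microRNAs: hsa-let-7a-3p, hsa-let-7a-2-3p, hsa-let-7b-3p, hsa-let-7c-3p, hsa-let-7d-3p, hsa-let-7e-3p and hsa-let-7f-2-3p, with the prefix for human left off below. The set was proposed with the entinostat contrast of these libraries already known, so its differences between treatments are described here with their errors and carry no test. Small RNA was sequenced from 2 libraries of cells given the solvent DMSO and 2 libraries of cells given 2.5 µM entinostat, with 8 h for both treatments. Both groups were grown in medium with 10% fetal bovine serum, and the labels name no genetic change to the line. No label says whether replicates were separate cultures, so the spread between them may be technical.

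Let-7 microRNAs are cut by Drosha and Dicer from hairpins that hold a strand on each side. The 5p strand is usually the guide, which is loaded into Argonaute and represses targets through its seed, bases 2 to 8. The 3p strand is usually the passenger, which is released and degraded, so its steady level is low. The family is known for promoting differentiation and restraining growth genes such as RAS and HMGA2 in lung and other tissues. The RNA-binding protein LIN28 blocks maturation of let-7 precursors, in part through a GGAG element in the terminal loop.

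The 3p arms differ from each other in their seeds, which the 5p arms do not. RefSeq (GRCh38.p14) held the mature sequence of 6 of the 7 arms, all but let-7f-2-3p. They are shown 5′ to 3′ with the seed in capitals, grouped by seed, because each seed would define a separate set of targets.
let-7a-3p: cUAUACAAucuacugucuuuc
let-7b-3p: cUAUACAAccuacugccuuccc
let-7c-3p: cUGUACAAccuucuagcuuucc
let-7d-3p: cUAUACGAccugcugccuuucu
let-7e-3p: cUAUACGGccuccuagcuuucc
let-7a-2-3p: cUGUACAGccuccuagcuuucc

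These 6 sequences carried 5 distinct seeds. Only let-7a-3p and let-7b-3p shared one among them, and RefSeq gave that seed to 4 human mature microRNAs. The others were let-7f-1-3p and miR-98-3p, which the deposited count table did not list. The seeds of let-7c-3p, let-7d-3p and let-7e-3p each belonged to 1 human mature microRNA. Of the 21 positions compared, 13 had the same base in all 6 arms, 4 of them inside the seed. Pairs of arms differed at 2 to 7 positions, and the closest were let-7a-2-3p with let-7c-3p (G8A and C12U, counted from the 5′ end, let-7a-2-3p first) and let-7a-2-3p with let-7e-3p (G3A and A7G). How reads shared by such similar sequences were assigned is not given in the sources used here, so the rare let-7a-2-3p is uncertain. All 6 arms start with C, the first base of 27.4% of the 822 human 3p arms in RefSeq.

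The 5p arms of the 9 listed family members all have the seed GAGGUAG. Pairs of them differed at 1 to 6 positions. The unknown assignment of shared reads thus also bears on the 5p counts and on each 3p share by family. The arm let-7d-5p is shown beside let-7a-5p because it differs from it at the 5′ end (U1A) and at 1 further position (U16C).
let-7a-5p: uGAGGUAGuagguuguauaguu
let-7d-5p: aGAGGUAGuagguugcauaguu

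The hairpins lie at separate loci (GRCh38, RefSeq, with the same positions in GENCODE release 29). MIRLET7E (chromosome 19, 51692786 to 51692864, plus strand) is in an intron of SPACA6, opposite an exon of SPACA6P-AS, and starts 174 bases from miR-99b and 468 bases from miR-125a. MIRLET7C (chromosome 21, 16539828 to 16539911, plus strand) is in an intron of MIR99AHG and starts 739 bases from miR-99a. MIRLET7D (chromosome 9, 94178834 to 94178920, plus strand) is intronic to AL158152.2, a long intergenic non-coding RNA, 2877 bases from the start of MIRLET7A1. MIRLET7A3 and MIRLET7B (chromosome 22, 46112749 to 46112822 and 46113686 to 46113768, plus strand) overlap exons of MIRLET7BHG. The name let-7a-3p covers the identical arms of MIRLET7A1 and MIRLET7A3, while let-7a-2-3p comes from MIRLET7A2 (chromosome 11, 122146522 to 122146593, minus strand) in an intron of MIR100HG. The motif GGAG, searched on the RNA strand of the whole hairpin, was present in 9 of the 12 let-7 and miR-98 hairpins, against 43.4% of all 1562 human hairpins. The hairpins without these letters were MIRLET7A3, MIRLET7B and MIR98. The let-7e and let-7d hairpins are shown with the 3p arm in capitals, since the first had the clearest separation between treatments and the second the most even use of its arms.
MIRLET7E: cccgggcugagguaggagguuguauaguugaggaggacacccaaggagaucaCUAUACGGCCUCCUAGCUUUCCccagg
MIRLET7D: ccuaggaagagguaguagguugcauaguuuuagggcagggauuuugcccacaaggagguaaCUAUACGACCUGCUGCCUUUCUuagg

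Depth limits what can be seen of such rare strands. Libraries held 547875 to 938559 counts, and a count of 0 allowed up to 3.20 to 5.48 CPM, counts scaled to a library total of 1e+06, which covers counting error only. Among the let-7 3p arms the lowest count above 0 was 2, so single reads may have been dropped before deposit. A listed 0 would then allow more than these limits. MicroRNAs that mark blood, liver or muscle summed to 0 to 12.8 CPM per type and library, epithelial ones to 28.5 to 58.4 CPM and mesenchymal ones to 70.3 to 111.5 CPM. Defining markers at 0 in all libraries or not listed in the deposited count table included miR-451a, miR-223-3p, miR-206, miR-124-3p and miR-141-3p. The endothelial marker miR-126-3p stood at 1706 to 2225 CPM, with overlapping treatments. Mesenchymal and epithelial sums were higher in both entinostat libraries than in both DMSO libraries, and their part in the let-7 values was not tested.

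In DMSO-treated cells the 3p arms together made up a small part of the microRNA pool. The DMSO libraries held 474 and 307 of their counts, 0.0505% of the library (exact 95% interval 0.0461 to 0.0553%) and 0.0547% (0.0487 to 0.0611%). The entinostat libraries held 216 and 260, 0.0394% (0.0343 to 0.0450%) and 0.0345% (0.0305 to 0.0390%). The mean share was 0.0526 ± 0.00295% with DMSO and 0.0370 ± 0.00347% with entinostat (SD, n = 2), a ratio of 0.703. Both entinostat libraries lay below both DMSO libraries. Over the same libraries the 9 listed 5p arms held 1.83% and 2.002% with DMSO and 2.06% and 1.92% with entinostat. The 5p arms thus outnumbered the 3p arms 36.3-fold and 36.6-fold with DMSO and 52.2-fold and 55.6-fold with entinostat. The 9 include let-7g-5p, let-7i-5p and miR-98-5p, whose 3p arms were not listed, so these ratios are not over matched hairpins.

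Among the 3p arms, let-7c-3p and let-7e-3p were the most abundant. Levels below are CPM after TMM scaling (a trimmed mean of log ratios between libraries), and are not divided by length, since the mature arms have 21 or 22 bases. Recovery in library preparation can differ between sequences, so the order of levels need not be the order in the cells. Mean levels over the 4 libraries were 198.9 CPM for let-7c-3p, 118.7 for let-7e-3p, 57.6 for let-7a-3p, 53.8 for let-7d-3p and 17.7 for let-7b-3p. The arm let-7c-3p was above let-7e-3p in each library. The ranges of let-7a-3p (46.1 to 85.4 CPM) and let-7d-3p (38.2 to 75.9 CPM) overlapped, so these neighbours did not differ beyond their spread. Of all 3p counts, let-7c-3p gave 41.0 to 51.9%, and with let-7e-3p 68.4 to 74.5%. The rarest arms, let-7a-2-3p and let-7f-2-3p, had 3 and 2 counts in DMSO replicate 1 and 0 in the other libraries.

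**Figure D1:**
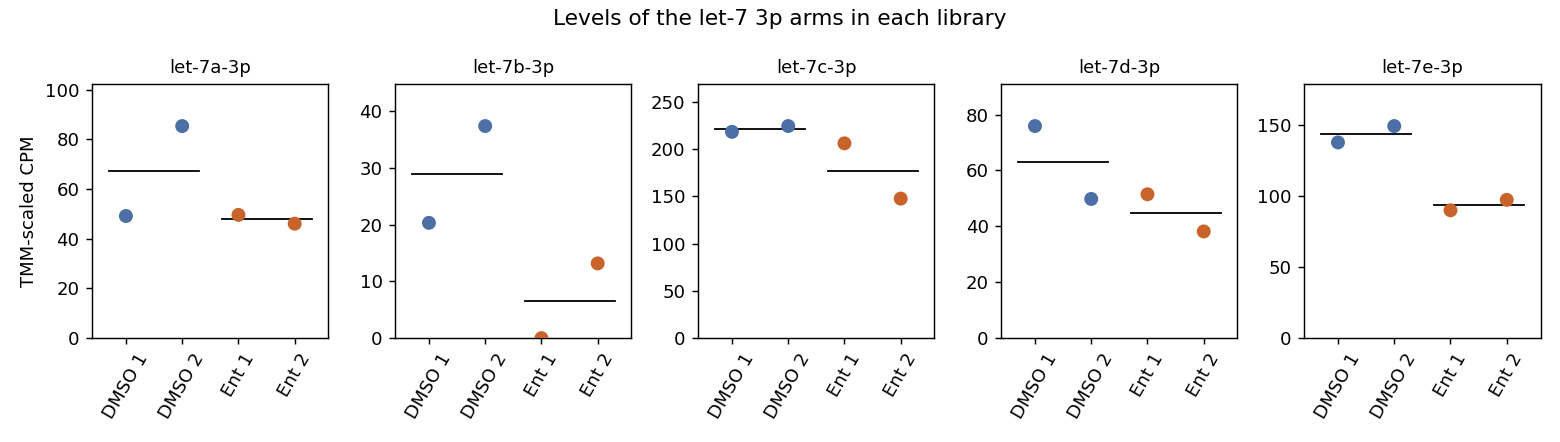
Level of each of the 5 let-7 3p arms with enough counts for the fit, in TMM-scaled CPM on a linear axis from 0 that differs between panels; each point is a library (DMSO 1 and 2, entinostat 1 and 2) and each line a group mean. The entinostat points lie below both DMSO points for let-7e-3p, let-7c-3p and let-7b-3p, and overlap with them for let-7a-3p and let-7d-3p.

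The arm let-7e-3p separated the treatments most cleanly relative to its spread. Its level was 137.9 and 149.4 CPM with DMSO and 90.1 and 97.4 CPM with entinostat. The groups did not overlap, and the gap between them was wider than the distance between replicates. The means were 143.6 ± 8.16 and 93.7 ± 5.19 CPM (SD, n = 2), a fitted log2 fold change of -0.60 (SE 0.17), or 0.659-fold. Leaving out any 1 library gave -0.68 to -0.57.

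The most abundant arm, let-7c-3p, was at 218.0 and 224.1 CPM with DMSO and 205.9 and 147.4 CPM with entinostat. Both entinostat libraries were lower, but entinostat replicate 1 lay close to the DMSO pair. The log2 fold change was -0.34 (SE 0.18), which shrank to -0.11 when entinostat replicate 2 was left out and grew to -0.60 when entinostat replicate 1 was.

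For let-7b-3p the values rest on few reads, 19 and 21 in the DMSO libraries against 0 and 10 after entinostat. In CPM these are 20.3 and 37.4 against 0 and 13.2, where the 0 allows up to 5.48 CPM, or more if single reads were dropped. The groups did not overlap, and the fitted log2 fold change of -1.84 had a wide error (SE 0.79). It was -1.07 without entinostat replicate 1, the library with no count. Its size also depends on how a 0 is handled, with -2.92 and -3.42 from limma-trend on log2 of the deposited CPM plus 1 and plus 0.5. This arm passed the low-count filter through its DMSO libraries.

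In let-7a-3p and let-7d-3p a single DMSO library set the difference. The arm let-7a-3p stood at 49.2 and 85.4 CPM with DMSO and 49.6 and 46.1 CPM with entinostat, so DMSO replicate 2 was high and the other libraries lay together. Its log2 fold change of -0.43 (SE 0.31) became -0.07 without DMSO replicate 2 and -0.85 without DMSO replicate 1. The arm let-7d-3p was at 75.9 and 49.8 CPM with DMSO and 51.5 and 38.2 CPM with entinostat, with DMSO replicate 1 the high one. Its log2 fold change of -0.56 (SE 0.30) became -0.19 without DMSO replicate 1 and -0.81 without DMSO replicate 2.

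Against the whole table, 5 of the 5 fitted 3p arms had a log2 fold change below 0, where 48.1% of the 401 fitted microRNAs did. Their median was -0.56, against 0.00466 over all fitted microRNAs. In 3 of the 5 arms both entinostat libraries lay below both DMSO libraries, which held for 20% of the fitted microRNAs. Of these, let-7b-3p passed the low-count filter only through its DMSO libraries, so it could enter the fit only as a lower arm. These counts follow from a choice made on this contrast and are a description only. The edgeR quasi-likelihood fit called 0% of the 401 microRNAs at a Benjamini-Hochberg adjusted p of 0.05, with 27 at an unadjusted p under that value (12 higher, 15 lower). DESeq2 also called 0, with 11 at an unadjusted p under that value.

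The 5p arms of the family, which the naming rule left out, lay on both sides of their DMSO level, and none passed the threshold. Their list was also drawn up with earlier results of these data known, so they are not an independent comparison. They include let-7g-5p, let-7i-5p and miR-98-5p, whose 3p arms the deposited count table did not list. The edgeR test called 0 of the 9 let-7 and miR-98 5p arms, with 5 above 0 and 4 below and a median log2 fold change of 0.000337. Under upper quartile scaling, which put the median of all 401 fitted microRNAs at 0.12, all 9 lay above 0 with a median of 0.10, and with size factors of the DESeq2 kind 4 did. One library also moved this balance: without entinostat replicate 1, 3 lay above 0 (median -0.16), and without entinostat replicate 2, 8 did (median 0.14). Without DMSO replicate 1 the median was -0.06, and without DMSO replicate 2 it was 0.05. The most abundant, let-7c-5p, was at 8015 and 8493 CPM with DMSO and 8863 and 8675 CPM with entinostat (log2 fold change 0.09 with an SE of 0.08, edgeR adjusted p = 0.741). The arm let-7e-5p was at 2038 and 2147 CPM against 2312 and 2260 CPM (0.13, SE 0.09, edgeR adjusted p = 0.640). For let-7b-5p the levels were 604.9 and 587.0 CPM against 663.5 and 659.5 CPM (0.15, SE 0.10, edgeR adjusted p = 0.640). In these 3 families the 5p arm lay higher in both entinostat libraries than in both DMSO libraries, the opposite side from the 3p arm. That was 3 of 9 arms, where 20.7% of the 401 fitted microRNAs did the same. For let-7a-5p and let-7d-5p the treatments overlapped, with log2 fold changes of 0.01 (SE 0.10) and -0.11 (SE 0.26).

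**Figure D2:**
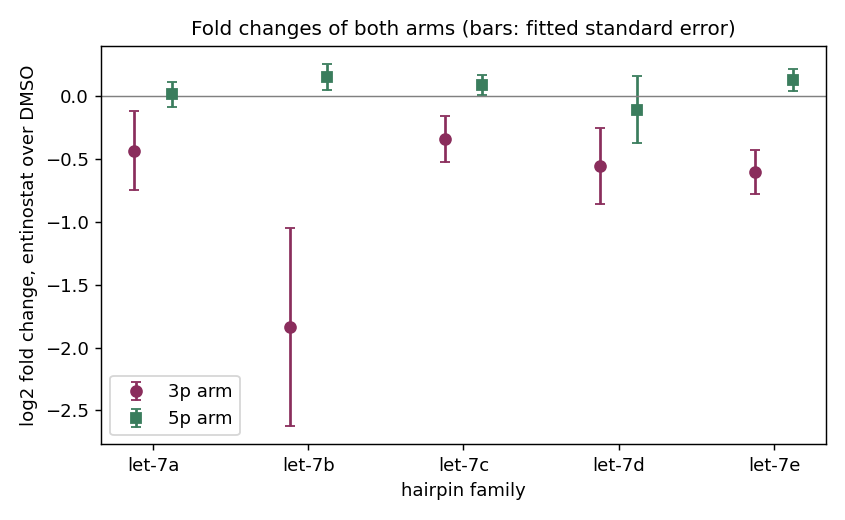
Log2 fold change, entinostat over DMSO, for the 3p arm (circles) and the 5p arm (squares) of let-7a to let-7e. Bars are 1 standard error, worked back from the test statistic of the fit. The 3p arms lie between -1.84 and -0.34 and the 5p arms between -0.11 and 0.15.

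Comparing both arms within a library removes the scaling between libraries. The share of the 3p arm among all listed let-7 and miR-98 counts was 2.68% and 2.66% with DMSO and 1.88% and 1.77% with entinostat. The means were 2.67 ± 0.0159% and 1.82 ± 0.0791% (SD, n = 2), and the gap was wide relative to the distance between replicates. The difference stayed with any 1 of the 5 fitted families left out. All these arms were chosen with this contrast known, so that is a description only. Leaving out both arms of let-7e gave 2.21% and 2.17% against 1.64% and 1.44%. Leaving out let-7c gave 2.71% and 2.72% against 1.59% and 1.85%.

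By family, the 3p share was lower in both entinostat libraries for let-7a, let-7b, let-7c and let-7e. Each share depends on how reads of near-identical arms were assigned, which is not known here. In let-7e it was 6.34% (exact 95% interval 5.32 to 7.48%) and 6.51% (5.22 to 7.99%) with DMSO and 3.75% (2.79 to 4.93%) and 4.13% (3.26 to 5.16%) with entinostat. Neither entinostat interval reached those of the DMSO libraries, though intervals cover counting error only. In let-7c the shares were 2.65% and 2.57% against 2.27% and 1.67%, and only the interval of entinostat replicate 2 (1.38 to 2.01%) lay clear of those of the DMSO libraries. In let-7a, with let-7a-2-3p counted in, they were 1.08% and 1.60% against 0.905% and 0.972%, and the intervals of both DMSO libraries overlapped those of both entinostat libraries. In let-7b they were 3.25% and 5.98% against 0% of 361 counts and 1.96%. The 0% had an exact 95% upper limit of 1.02% (0.831% at 3 counts), if the listed 0 is a true 0. The interval of entinostat replicate 2 (0.942 to 3.57%) overlapped that of DMSO replicate 1 (1.97 to 5.03%) but not that of DMSO replicate 2 (lower limit 3.74%).

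The let-7d hairpin had the most even use of its arms among the let-7 pairs, though on few reads. Its 3p and 5p counts were 71 and 62 in DMSO replicate 1 and 28 and 45 in DMSO replicate 2. With entinostat they were 28 and 45 and then 29 and 41. The 3p share was thus 53.4% (44.5 to 62.1%), 38.4% (27.2 to 50.5%), 38.4% (27.2 to 50.5%) and 41.4% (29.8 to 53.8%). Each interval included equal use of both arms, but with so few reads that does not establish it. Treatments overlapped, and the share with entinostat minus that with DMSO was -5.98 percentage points, or 1.54 without DMSO replicate 1. By level, let-7d-5p was rare for a 5p arm of the family, at 54.0 to 82.7 CPM, while let-7a-5p had 4695 to 5435 CPM. The 3p arm was the rarer one in every library for let-7a, let-7b, let-7c, let-7e and let-7f. For let-7d it was the rarer one in every library except DMSO replicate 1.

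**Figure D3:**
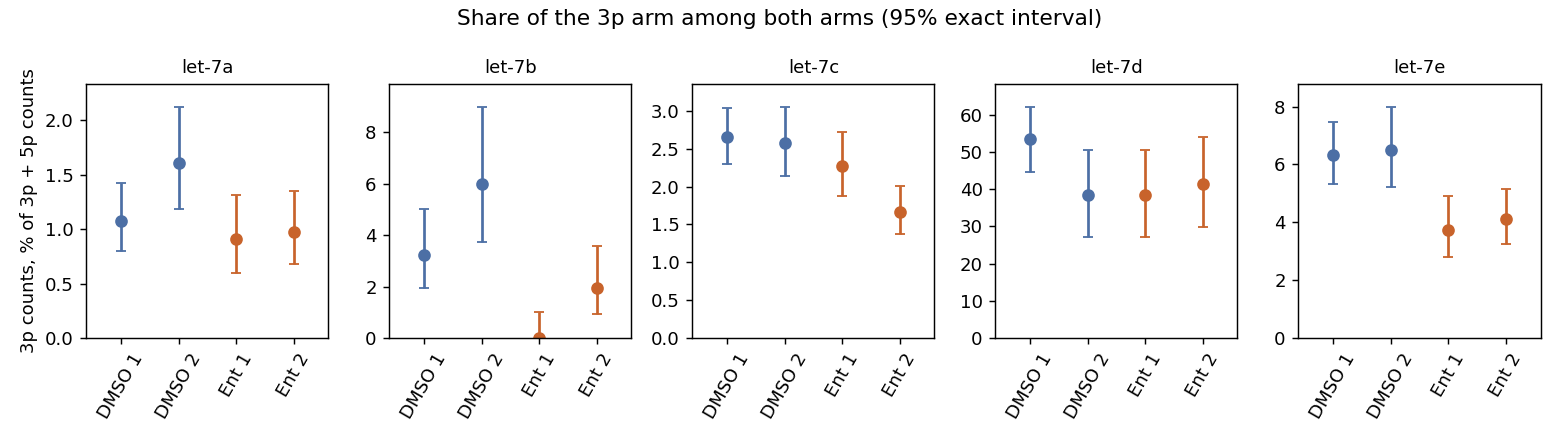
Counts of the 3p arm as a percentage of 3p plus 5p counts in each library, with exact 95% intervals of counting error; axes start at 0 and differ between panels. In let-7e the DMSO libraries are at 6.34% and 6.51% and the entinostat libraries at 3.75% and 4.13%, while in let-7d all 4 libraries lie between 38.4% and 53.4%.

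Rarer arms of other hairpins did not share this direction as a group. For 92 hairpin names both arms were fitted, let-7 included, and the arm with the lower mean level was taken as the rarer. In the 87 names outside let-7, 36 rarer arms (41.4%) had a log2 fold change below 0, with a median of 0.02. The fold change of the rarer arm minus that of its commoner arm had a median of 0.03 there and was -1.99, -0.73, -0.45, -0.45 and -0.43 for let-7b, let-7e, let-7d, let-7a and let-7c. Among the 59 of these names whose rarer arm was as abundant as the let-7 3p arms, 21 had such a difference below 0, and the median was 0.08. Over all 87 names the difference ran from -0.83 (miR-195) to 1.13 (miR-105). Of the let-7 names only let-7b, which rests on few reads, lay outside that range. The share of the rarer arm was lower in both entinostat libraries for 4 of 5 let-7 names, against 19.6% of the 92 names. Outside let-7 it was lower without overlap in 14 names and higher without overlap in 14. The let-7 names were chosen with this contrast known, and let-7b-3p passed the low-count filter only through its DMSO libraries. Their side of the comparison is a description only.

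**Figure D4:**
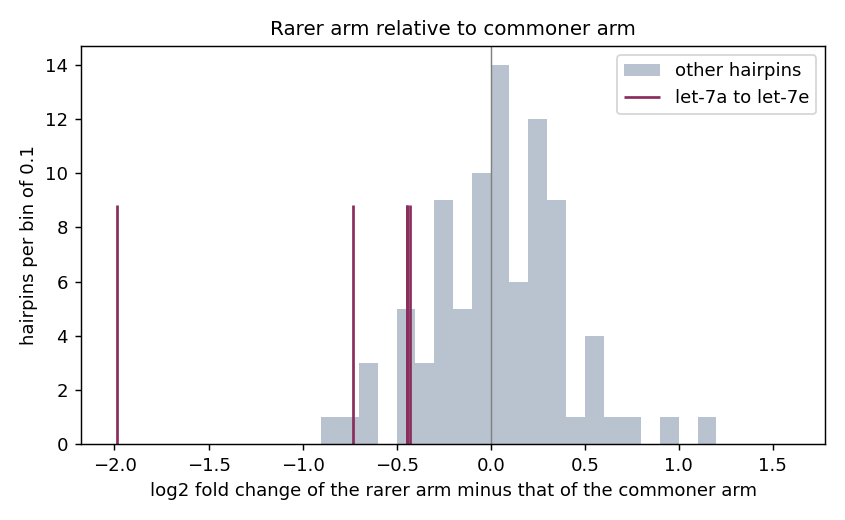
Log2 fold change of the rarer arm minus that of the commoner arm, for 87 hairpin names outside let-7 (bars, names per bin of 0.1) and for let-7a to let-7e (vertical lines, whose height has no meaning). Lines for let-7a, let-7c and let-7d fall together near the lower shoulder of the bars, let-7e is at -0.73 and let-7b at -1.99. Only let-7b lies outside the range of the other names (-0.83 to 1.13).

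MicroRNAs made from the same transcripts as let-7 hairpins were also read. None of 10 listed arms of miR-99a, miR-99b, miR-100, miR-125a and miR-125b was called in the edgeR test, with 5 above 0 and 5 below and a median log2 fold change of 0.00480 (8 above 0 and a median of 0.12 under upper quartile scaling; a median of -0.000905 with size factors of the DESeq2 kind). Both neighbours of let-7e had their major arm below 0: miR-125a-5p at -0.23 (SE 0.08, edgeR adjusted p = 0.595) and miR-99b-5p at -0.22 (SE 0.10, edgeR adjusted p = 0.595). Their 3p arms were close to 0, at 0.04 (SE 0.23) for miR-125a-3p and -0.08 (SE 0.10) for miR-99b-3p. Beside let-7c, miR-99a-3p was at 0.15 (SE 0.27). The arm miR-125b-2-3p, whose distance from let-7c was not measured, was at 0.03 (SE 0.09).

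Over the 4 libraries, the summed level of the 3p arms was 506.6, 546.1, 397.0 and 342.2 CPM in the order DMSO 1, DMSO 2, entinostat 1, entinostat 2. Of 234 other microRNAs at 100 CPM or more, the closest in pattern were miR-28-5p, miR-22-3p and miR-16-2-3p. Their root mean square differences from it, on centred log2 levels over the 4 libraries, were 0.112, 0.114 and 0.118. For miR-28-5p the levels were 214.8 and 238.3 CPM with DMSO and 204.0 and 165.9 CPM with entinostat. With 4 libraries such likeness is a description only.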

How the data were processed

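The submitters' processing notes list bcl2fastq 2.18. Aligner, counter, microRNA annotation and build were not given in the sources used here. The authors deposited whole-number counts per mature microRNA. They also deposited CPM values, which equal count over column total within 0.0001 CPM and enter only an alternative. Per the labels' protocols, each library took 1 µg of total RNA and reagents from New England Biolabs, and no molecular identifier is named.

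Groups came from sample titles. Counts were TMM-scaled and fitted over the whole table by edgeR 4.0.16 in R 4.3.3 (quasi-likelihood test), treatment as the only term, after filterByExpr (minimum count 10, minimum total 15), which kept 401 of 826 microRNAs and 5 of the 7 let-7 3p arms. Calls used a Benjamini-Hochberg adjusted p under 0.05. Each SE is the size of the log2 fold change divided by the square root of the quasi-likelihood F statistic. It restates that statistic and is not a separate estimate of error, and for the let-7 3p arms it is a description only. Intervals of shares are 95% Clopper-Pearson (exact), and the limit for a count of 0 is 3 counts, which takes a listed 0 as no read. A run of the fit on simulated data used larger changes than most let-7 3p arms showed, so it does not bear on changes of their size. Alternatives used DESeq2 1.42.0 and limma 3.58.1. All 7 arms, the 9 listed 5p arms and the cluster partners were named, with the 3 microRNAs of closest pattern. The members and lists were chosen with earlier results of these data known.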

Additional observations from a re-analysis of the deposited data

How the results depend on the processing

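All 5 fitted let-7 3p arms stayed below 0 under every alternative run, which covered scaling, filter, tool, block and each library left out; let-7b-3p without entinostat replicate 2 had only a 0 left with entinostat, so its fitted size there is not given. Their median log2 fold change was -0.56, and -0.43 under upper quartile scaling, where the median of all fitted microRNAs was 0.12; leaving out 1 library gave -0.68 to -0.38. The difference in summed 3p share (entinostat minus DMSO) ran from -0.0181 to -0.0132 percentage points with 1 library left out. The difference in 3p share of let-7d (entinostat minus DMSO) ran from -13.5 to 1.54 points with 1 library left out, turning positive without DMSO replicate 1. The count of called microRNAs was 0, but 4 with the edgeR likelihood ratio test, and it varied with 1 library left out. Calls among 5p arms and cluster partners stayed at 0 throughout. The replicate numbers share only a number: with the replicate block 0 microRNAs were called and the median of the 3p arms was -0.48. The deviations of same-numbered libraries were weakly correlated (-0.12), and with a crossed pairing as a block, chosen after seeing the data, 0 were called. Depth limits let-7b-3p, let-7a-2-3p and let-7f-2-3p most.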
